A study of Drosophila melanogaster with 26 samples.

Results

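The genes described here are 6 zygotic genes of Drosophila melanogaster that act while the syncytial embryo packages its nuclei into cells: nullo, bnk (bottleneck), Sry-alpha (serendipity alpha), slam (slow as molasses), halo and dunk. They were taken by symbol from a table of 14220 genes, and all 6 symbols were found. Transcript abundance was measured by RNA-seq in 26 libraries, each from a pool of 3 embryos at nuclear cycles 13 to 14. The study asked what removal of the fifth zinc finger of the transcription factor Zelda (gene zld) does to the embryo. On day 1 there were 3 wild-type libraries of the genotype sfGFP-ZLD and 3 libraries of the zinc finger mutant, named Zf5 and labelled mNG-ZF5 GLC. On day 2 there were 6 wild-type libraries of another genotype, H2B-EGFP, and 6 Zf5 libraries again labelled mNG-ZF5 GLC. A second zelda mutant, Zld294, was represented by 8 libraries, all made on day 3. The wild types therefore carried a different tagged gene on each day, no wild-type library was made on day 3, and a difference between Zld294 and another genotype cannot be told apart from a difference between days. No further agent, treatment or parental genotype is named in the labels. The labels do not say whether libraries of a group came from separate crosses or collections, so the p-values measure only the spread between these pools, which may be partly technical.

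In the fly embryo the early nuclei divide without cell membranes between them, and in cycle 14 membrane furrows grow inward between the nuclei in a process called cellularization. Most furrow components are laid down by the mother, and a small group of genes transcribed by the embryo itself supplies the proteins that start, shape and time the furrow. Zelda is a maternally supplied factor that opens chromatin at many of the earliest zygotic genes. Among the 6 genes, slam encodes the furrow canal protein that recruits RhoGEF2 and is needed for the furrow to advance, nullo encodes a small basic protein that stabilises actin and the first basal junctions at the furrow, Sry-alpha encodes a membrane-associated protein of the furrow's actin network, and bnk encodes a basic protein that keeps the contractile actomyosin hexagons from closing early. The product of dunk maintains cortical myosin II as the furrow starts, and that of halo sets the direction in which lipid droplets are moved along microtubules in the same period.

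In the Ensembl release 115 annotation of the BDGP6.54 assembly, nullo lies on the plus strand of chromosome X at 7049476 to 7050321 and bnk on the plus strand of 3R at 31193362 to 31194389. Sry-alpha is on the plus strand of 3R at 30039719 to 30043071, slam on the plus strand of 2L at 6372388 to 6377284, halo on the minus strand of 2L at 1517533 to 1518148, and dunk on the plus strand of 2L at 22151623 to 22152640. Short genes with few introns prevailed: 3 of the 6 (nullo, bnk and halo) had a single exon in every annotated transcript, against 16.4% of the 13999 genes whose symbols matched the annotation, and 5 had at least 1 transcript of a single exon. The encoded proteins ranged from 109 amino acids for halo through 213 for nullo, 246 for dunk, 303 for bnk and 530 for Sry-alpha to 1173 for slam.

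The zld transcript was first compared across genotypes. It lay between 900.2 and 1344 TPM (transcript abundance corrected for length and scaled to a fixed total per library) in the 9 wild-type libraries, between 148 and 953 TPM in the 9 Zf5 libraries, and between 0.0873 and 43.2 TPM in the 8 Zld294 libraries, where replicates 7 and 8 stood at 43.2 and 20.2 TPM and the others at 2.39 TPM or less. TPM is a share of the transcripts of a library, and every library summed to 1000000, so read depth is unknown and no counting interval is given. The pools also differed in how far development had gone. A score for zygotic patterning, the mean log2(TPM + 1) of 20 gap, pair-rule and dorsoventral genes, was 3.90 to 6.58 in the wild-type pools of day 1, 1.72 to 5.62 in those of day 2, 4.87 to 5.92 in Zf5 of day 1, 1.18 to 6.45 in Zf5 of day 2 and 0.834 to 4.95 in Zld294. Markers of other tissues were low but unequal: 8 muscle and nerve genes together gave 0.258 to 41.4 TPM in 24 libraries but 120 and 66.6 TPM in Zf5 day 2 replicates 4 and 6. All 8 were above 0 in these replicates and also in Zf5 day 1 replicate 1, where they summed to 28.4 TPM. Ovarian follicle genes summed to at most 28.4 TPM, none of the 13 passed the abundance filter of any comparison, and 4 to 12 of them were at 0 in each library. In RNA from whole pools, fewer cells that express a gene and less RNA per cell cannot be told apart.

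The furrow gene slam was the most abundant of the 6 in every wild-type library. It reached 1652, 554 and 4346 TPM in wild type of day 1, the last value ranking 8 of 14220 genes in its library. On day 2 the wild-type libraries spanned 363 to 2705 TPM with a median of 597. The Zf5 libraries had 350, 433 and 401 TPM on day 1, all below the lowest wild-type library of that day, and 85.7 to 651 TPM with a median of 267 on day 2, where the groups overlapped. Zld294 was narrow, at 289 to 382 TPM with a median of 328, and 6 of its 8 libraries lay below every wild-type library. Its libraries were also closer together than those of wild type: the highest library exceeded the lowest by 1.32-fold in Zld294, by 7.84-fold in wild type of day 1 and by 7.46-fold in wild type of day 2.

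nullo, the actin and junction gene, had another order. Its wild-type levels were 130, 45.4 and 195 TPM on day 1 and 7.49 to 307 TPM with a median of 73.4 on day 2. Zf5 of day 1 had 219.5, 131 and 319 TPM, the highest median of any group, and 2 of these 3 libraries lay above all wild-type libraries of the day. Zf5 of day 2 ran from 2.91 to 223 TPM with a median of 26.3, and Zld294 from 0.683 to 56.1 TPM with a median of 15.4. Every pair of neighbouring groups in the order of nullo medians overlapped.

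The actin regulator bnk stood at 432, 115 and 1248 TPM in wild type of day 1 and at 18.6 to 859 TPM with a median of 115 in wild type of day 2. Zf5 of day 1 had 243, 77.0 and 43.6 TPM, so that 2 of 3 libraries lay under the wild-type range, and Zf5 of day 2 had 0.0968 to 66.5 TPM with a median of 14.97. In Zld294 bnk ranged from 0.292 to 32.8 TPM with a median of 10.2, and 5 of 8 libraries were below every wild-type library.

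Sry-alpha, of the furrow's actin network, was measured at 385, 90.8 and 1656 TPM in wild type of day 1 and at 9.19 to 774 TPM with a median of 73.3 in wild type of day 2. Zf5 of day 1 gave 140, 36.1 and 25.3 TPM, Zf5 of day 2 gave 0.865 to 301 TPM with a median of 20.1, and Zld294 gave 3.74 to 29.6 TPM with a median of 7.43. The groups overlapped in each comparison: only 2 of the 9 Zf5 and 4 of the 8 Zld294 libraries fell below the lowest wild-type library. In the annotation every exon base of Sry-alpha is also exonic in Sry-beta on the same strand, so how reads were split between the pair is uncertain. The Sry-beta level was 63.3 ± 9.88 TPM in wild type (SD, n = 9), 74.1 ± 11.6 TPM in Zf5 (SD, n = 9) and 65.8 ± 4.40 TPM in Zld294 (SD, n = 8), without a call in either mutant (limma, adjusted p = 0.314 and 0.670).

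The droplet transport gene halo reached 164, 38.7 and 607 TPM in wild type of day 1 and 1.69 to 305 TPM with a median of 24.8 on day 2. In Zf5 it was 9.84, 3.13 and 0.803 TPM on day 1, below all wild-type libraries of the day. In Zf5 of day 2 it was listed at 0 in replicates 1 and 3 and at 2.04, 17.6, 0.412 and 1.11 TPM in replicates 2, 4, 5 and 6, so that 4 of the 6 libraries lay below every wild-type library of that day. All 8 Zld294 libraries were under 1 TPM, between 0.0490 and 0.986 TPM, and lay below every wild-type library.

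The cortical myosin gene dunk gave the clearest separation. Wild type of day 1 had 283, 67.0 and 817 TPM, and wild type of day 2 had 13.2 to 492 TPM with a median of 79.2. Zf5 had 0.205, 0.541 and 0.170 TPM on day 1. On day 2 Zf5 was listed at 0 in replicate 3 and was at 0.0726 to 1.21 TPM in the others. Zld294 had 0.0487 to 0.543 TPM with a median of 0.312. The lowest wild-type library, at 13.2 TPM, therefore exceeded the highest of the 17 mutant libraries, at 1.21 TPM. dunk was the only one of the 6 genes with this property over all mutants. Of all genes tested, 0.577% lay wholly below wild type in Zf5 and 2.44% in Zld294. The share over both mutants together was not computed. It lies inside CG42748 on the same strand, whose RNA was 118 ± 16.2 TPM in wild type (SD, n = 9), 115 ± 32.1 TPM in Zf5 (SD, n = 9) and 111 ± 10.7 TPM in Zld294 (SD, n = 8). Where dunk was near 0, in the mutants, CG42748 thus stood at 72.3 TPM or more. The annotation also places nullo within CG12541 and bnk within mesh, both on the opposite strand and with 0 shared exon bases, and these genes reached at most 5.80 and 9.50 TPM.

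**Figure D1:**
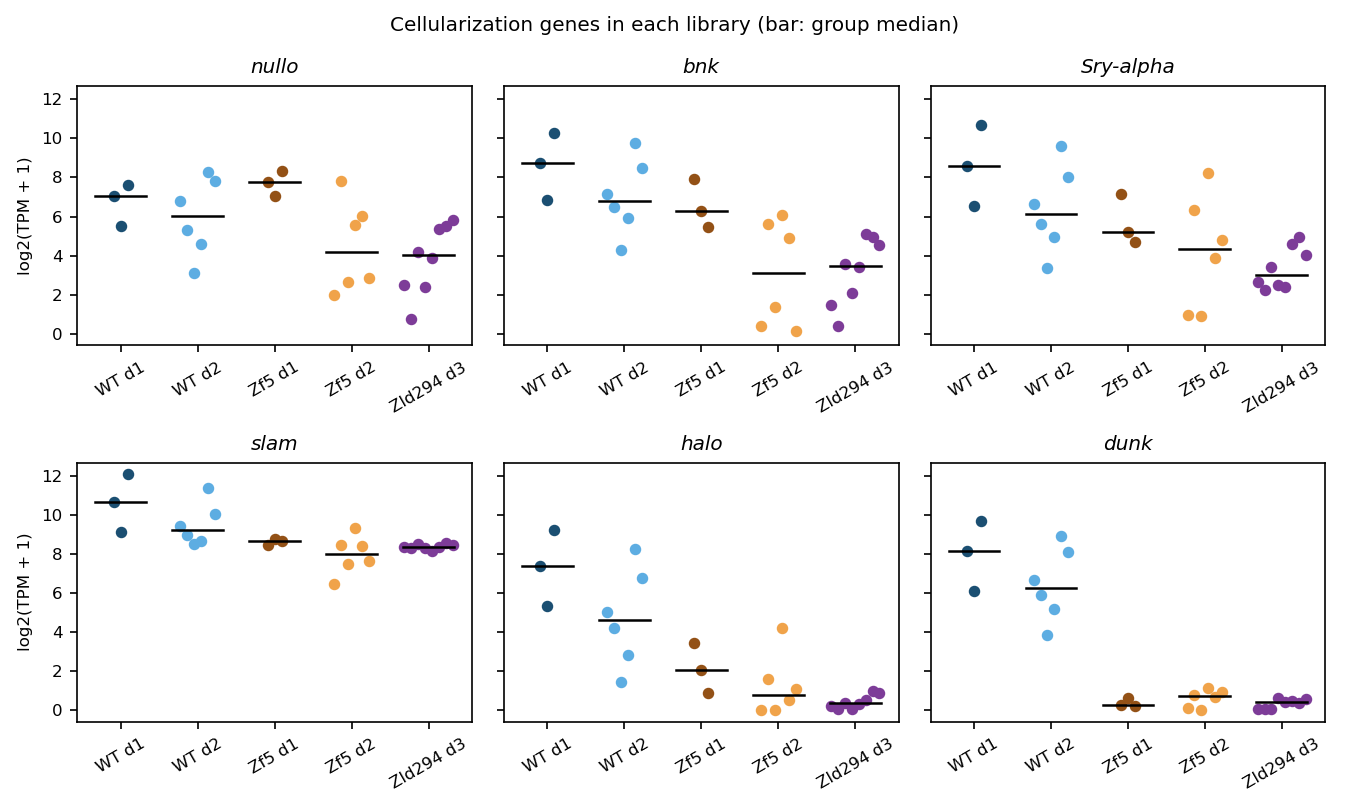
Level of each of the 6 genes in all 26 libraries, as TPM + 1 on a log axis, by genotype and day; each point is a library and each bar the group median. The dunk points of both mutants lie near the bottom of the axis and apart from wild type, those of slam stay at 85.7 TPM or more, and nullo points of the 5 groups overlap.

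The plot of levels by library also shows how widely pools of a group differed. In wild type of day 2 the highest library exceeded the lowest by 41.0-fold for nullo, 46.1-fold for bnk, 84.2-fold for Sry-alpha, 7.46-fold for slam, 180-fold for halo and 37.4-fold for dunk, whereas for zld, which is also supplied by the mother, the factor was 1.13. Together the 6 genes made up 0.00899% to 0.887% of all transcripts of a library. The library at the top was wild type of day 1 replicate 3, which also had the highest patterning score, 6.58. At the bottom was Zf5 of day 2 replicate 1, whose score of 1.18 was the lowest among the wild-type and Zf5 libraries.

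Zf5 was compared with wild type over both days, with day as a term, in a linear model on log2(TPM + 1) fitted to the 8151 genes that passed the abundance filter (limma, Benjamini-Hochberg adjustment). In this fit 4 of the 6 genes fell and none rose, against 2.1% of all genes tested that fell. The level of dunk fell by 6.42 on the log2 scale (SE 0.61, adjusted p = 3.3e-06), and it was the only member whose wild-type and Zf5 ranges were separate, as were those of 0.577% of all genes in the lower direction. For halo the log2 difference was -4.08 (SE 0.86, adjusted p = 0.00825). The 2 remaining calls were bnk, at -3.32 (SE 0.92, adjusted p = 0.0436), and slam, at -1.70 (SE 0.44, adjusted p = 0.0312). Sry-alpha had a log2 difference of -2.43 (95% interval -4.53 to -0.33) and did not pass, with an adjusted p of 0.141 in limma. That of nullo was -0.67, its 95% interval of -2.43 to 1.09 covers both directions, and its adjusted p in limma was 0.653. The median of the 6 log2 differences was -2.87, beside 0.01 over all genes tested. Because a pseudocount of 1 TPM was added to every value, these differences understate the change of genes near 0 in the mutant.

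The calls for halo and dunk passed in each of the 30 alternative settings run for this comparison. Those for bnk and slam were close to the threshold: bnk did not pass (adjusted p = 0.05003 to 0.0832 in limma) when any of 11 single libraries was left out, namely wild type day 1 replicates 1 and 3, wild type day 2 replicates 1, 2, 4, 5 and 6, Zf5 day 1 replicates 2 and 3 or Zf5 day 2 replicates 3 and 6, and slam did not pass (adjusted p = 0.0503 to 0.0672) without wild type day 1 replicates 1 or 3, wild type day 2 replicates 1 or 6, Zf5 day 1 replicates 1 or 3 or Zf5 day 2 replicate 6. With no abundance filter neither passed (limma adjusted p = 0.0692 for bnk and 0.0517 for slam). Without the pair of Zf5 libraries rich in muscle and nerve transcripts, day 2 replicates 4 and 6, 3 of the 6 genes passed. In that fit 4.53% of all genes were called, and bnk had an adjusted p of 0.0557 in limma.

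**Figure D2:**
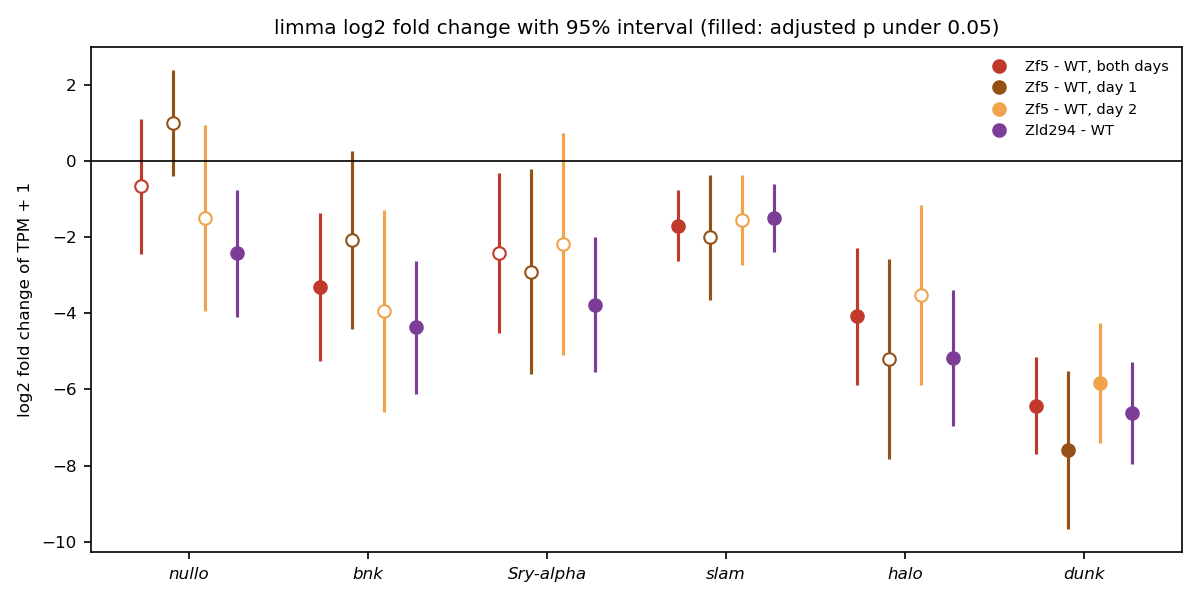
Log2 fold change of each gene on the log2(TPM + 1) scale from limma, with 95% confidence intervals; the comparisons with wild type are Zf5 on both days together, on each day alone, and Zld294. The dunk intervals lie farthest below 0, with estimates from -7.60 to -5.83, and the nullo intervals in all 3 Zf5 comparisons include 0.

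Within single days 5 of the 6 genes had negative estimates on both days, but fewer calls were made. On day 1, with 3 libraries against 3 and 7172 genes tested, only dunk was called (log2 difference -7.60, SE 0.86, limma adjusted p = 0.0131), against 0.906% of all genes that fell. Its adjusted p lay between 0.0684 and 0.0985 in limma without wild type replicate 1 or any single Zf5 library of that day, its log2 difference then being -7.72 to -7.51. The ranges of slam, halo and dunk were separate on that day, as were those of 7.47% of all genes in that direction, with log2 differences of -2.01 for slam (adjusted p = 0.211) and -5.20 for halo (adjusted p = 0.0753) in limma. nullo alone had a positive day 1 estimate, 0.99, with an adjusted p of 0.384 in limma. On day 2, with 6 libraries against 6 and 6990 genes tested, dunk was again the only call (-5.83, SE 0.73, limma adjusted p = 0.000783), against 1.17% of all genes that fell, and again the only member with separate ranges, beside 1.43% of all genes. The day 2 log2 estimates of the other members were -1.50 for nullo, -3.94 for bnk, -2.18 for Sry-alpha, -1.55 for slam and -3.52 for halo, with limma adjusted p from 0.168 to 0.686. The test of the difference between days called none of the 6 genes (limma adjusted p = 0.987 to 0.989, with 0 members at an unadjusted p under 0.05), and it called 0.478% of all genes.

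Zld294 was compared with the same 9 wild-type libraries as Zf5 and gave lower levels for all 6 genes in limma (Benjamini-Hochberg adjustment), where 6.76% of the 6925 genes tested fell. The log2 differences were -6.62 for dunk (SE 0.64, adjusted p = 8.85e-07), -5.18 for halo (SE 0.85, adjusted p = 0.000386) and -4.37 for bnk (SE 0.83, adjusted p = 0.0014). Those of Sry-alpha, at -3.77 (SE 0.84, adjusted p = 0.00475), nullo, at -2.43 (SE 0.79, adjusted p = 0.0464), and slam, at -1.50 (SE 0.42, adjusted p = 0.0211), were smaller. The ranges of halo and dunk were separate from wild type, as were those of 2.44% of all genes in that direction. The median over the 6 genes was -4.07, beside 0.13 over all genes tested. The call for nullo did not pass in 20 of 31 alternatives (limma adjusted p up to 0.110, and 0.051 against wild type of day 1 alone), among them each fit without 1 of 12 libraries (adjusted p = 0.0506 to 0.0916), namely wild type day 1 replicates 1 to 3, wild type day 2 replicates 1, 2, 5 and 6 and Zld294 replicates 1 to 5. Without Zld294 replicates 7 and 8, which had the most zld RNA, 5 of the 6 genes passed. In that fit 9.99% of all genes were called, and slam had an adjusted p of 0.0544 in limma.

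A direct comparison of the mutants could be fitted for 4 members, since halo and dunk reached 1 TPM in too few of the 17 mutant libraries. None of the 4 was called in limma and none had an unadjusted p under 0.05, while 6.57% of the 7050 genes tested were called. The log2 difference of Zld294 from Zf5 was -1.76 for nullo (adjusted p = 0.233), -1.06 for bnk (adjusted p = 0.519), -1.35 for Sry-alpha (adjusted p = 0.307) and 0.20 for slam (adjusted p = 0.662). Against Zf5 of day 1 alone all 4 passed in limma, in a fit that called 58.5% of all genes: nullo at -3.92 (adjusted p = 0.00441), bnk at -3.39 (adjusted p = 0.0103), Sry-alpha at -2.35 (adjusted p = 0.00986) and slam, with the opposite sign, at -0.24 (adjusted p = 0.0406). The wild types of both days also gave no call among the 6 genes, with 0 at an unadjusted p under 0.05 in limma and 8.2% of 7160 genes called. Their estimates for day 2 relative to day 1 were all negative, from -0.75 for nullo to -2.55 for halo, beside a median of 0.19 over all genes that median-ratio scaling moved to 0.02.

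Because all 6 levels varied widely between pools of a group, each gene was also set against nullo within the same library, a contrast chosen after the levels had been seen. In wild type the log2 ratio of bnk to nullo was 0.37 to 2.67 over 9 libraries. In Zf5 it was -2.84 to 0.51, with 8 of 9 libraries below all wild-type ones, and in Zld294 it was -1.30 to -0.26, below wild type in 8 of 8. The ratio of dunk to nullo was -0.12 to 2.06 in wild type, -8.09 to -1.87 in Zf5 and -5.29 to -0.68 in Zld294, so that neither mutant overlapped wild type. As dunk was at 1.21 TPM or less in every mutant library, the spread of its mutant ratios mostly follows nullo and the pseudocount.

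The mean log2 ratio to nullo in Zf5 minus that in wild type was -2.65 for bnk, -1.76 for Sry-alpha, -1.03 for slam, -3.41 for halo and -5.75 for dunk. In Zld294, set against the same wild-type libraries, it was -1.94 for bnk, -1.34 for Sry-alpha, 0.93 for slam, -2.75 for halo and -4.19 for dunk. Since nullo was taken as the denominator after its levels in Zf5 were known, these ratios restate how the levels differ and are given without a test.

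**Figure D3:**
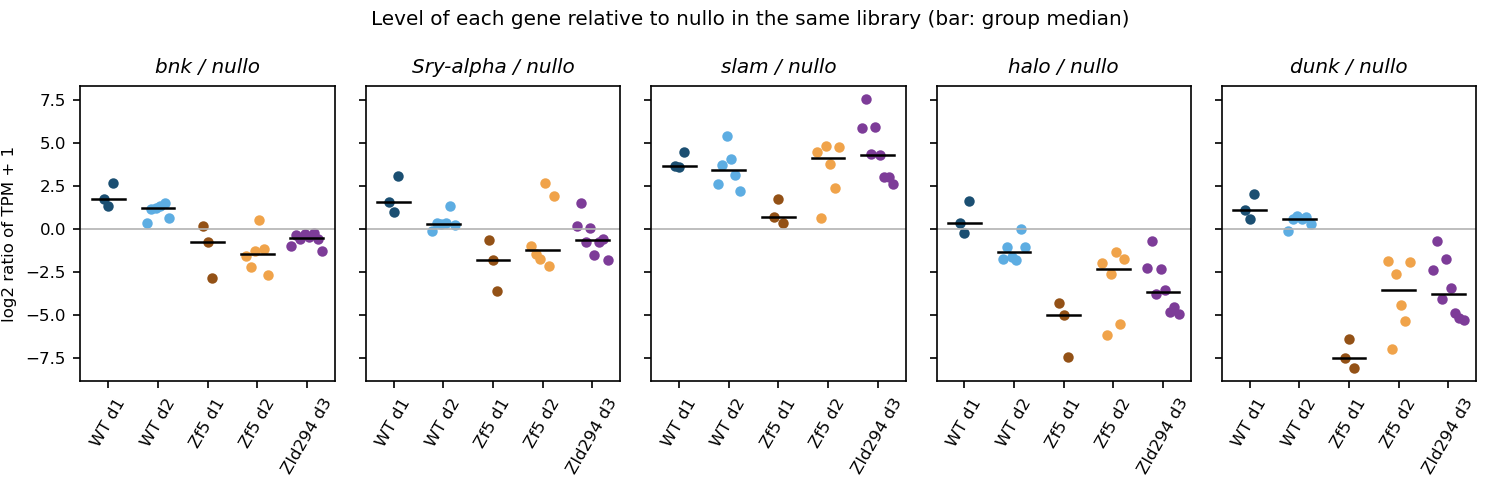
Log2 ratio of bnk, Sry-alpha, slam, halo and dunk to nullo, as (TPM + 1) in the same library, by genotype and day; points are libraries and bars group medians. The dunk ratios of all 17 mutant libraries lie below the lowest wild-type ratio of -0.12, and those of slam overlap between genotypes.

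Inside wild type bnk and dunk kept nearly fixed proportions although the levels varied widely. The SD of the log2 ratio over the 9 wild-type libraries was 0.15 for bnk and dunk, the smallest of the 15 pairs, and 0.32 for Sry-alpha and halo, with a median of 0.73 over all pairs. dunk RNA stood at 57.3% to 78.5% of the bnk TPM in all 9 wild-type libraries, and halo at 18.4% to 42.6% of the Sry-alpha TPM. The median pair SD was 1.90 in Zf5 (range 0.71 to 2.79) and 1.03 in Zld294 (range 0.27 to 1.74), beside a range of 0.15 to 1.42 in wild type. The ranges overlap, and SDs of pairs with a gene near 0 are held down by the pseudocount. In Zf5 of day 1 dunk stood at 0.0843% to 0.702% of bnk, and in Zld294 at 0.455% to 17.0%, while in Zf5 of day 2 the share ran from 0 to 899%, the last in replicate 6, where bnk was at 0.0968 TPM. The halo share of Sry-alpha was at most 8.69% in Zf5 and 5.71% in Zld294, below every wild-type library. These shares are of TPM, which is already per transcript length, and all points of a library share its depth and stage.

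**Figure D4:**
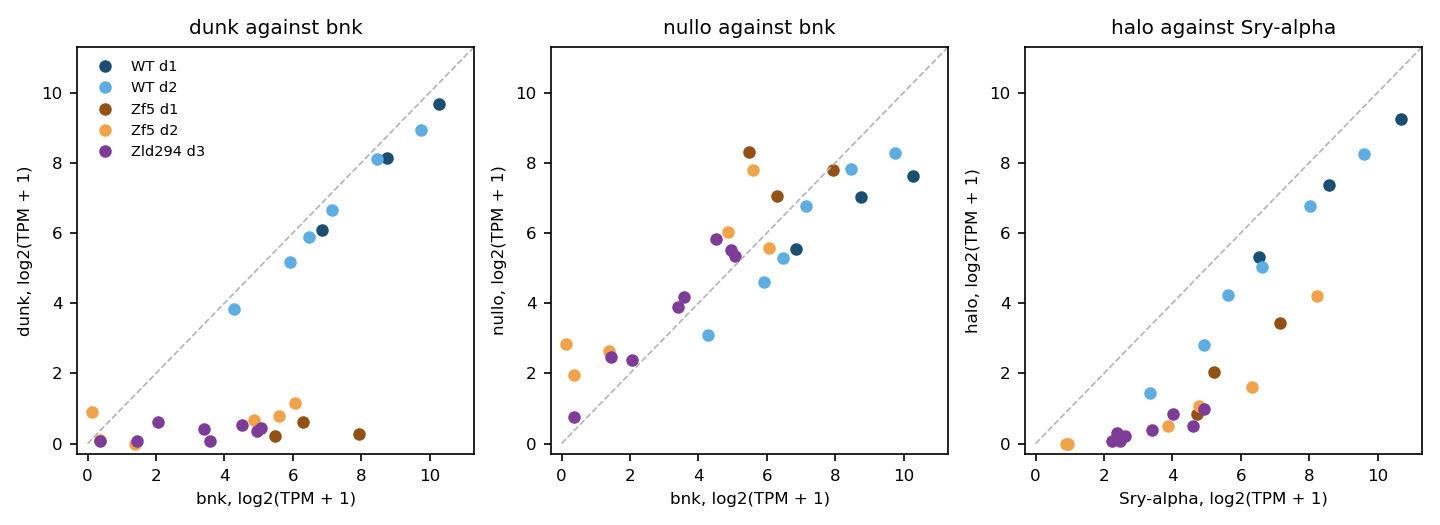
Levels (TPM + 1, log axes) of dunk against bnk, nullo against bnk, and halo against Sry-alpha, where each point is a library and the colour its genotype and day. The 9 wild-type libraries lie along a line with dunk at 57.3% to 78.5% of bnk, and 16 of the 17 mutant libraries have a lower share, the exception being Zf5 day 2 replicate 6, where bnk was at 0.0968 TPM.

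The genes were next read against the patterning score of the same libraries. In the plot of member levels against this score, the wild-type library with the highest score, 6.58, had the highest levels of bnk, Sry-alpha, slam, halo and dunk, whereas nullo was highest, at 307 TPM, in wild type day 2 replicate 5, with a score of 5.62. The lowest wild-type levels of all 6 genes were in day 2 replicate 3, with a score of 1.79. Zf5 of day 1 had scores of 4.87 to 5.92, within the wild-type range, with dunk at 0.541 TPM or less. The patterning list itself had 0 genes higher and 2 lower of 20 in Zf5 over both days (median log2 difference 0.64, 17 positive) and 0 higher and 2 lower of 19 in Zld294 (median -0.50). Of all genes tested, 3.1% were higher and 2.1% lower in Zf5, and 8.29% were higher and 6.76% lower in Zld294. With the score as a covariate, added after seeing the data, 5 of the 6 genes passed in Zf5 over both days in limma, in a fit that called 13.6% of all genes in either direction: bnk at -3.70 (adjusted p = 0.000654), Sry-alpha at -2.95 (adjusted p = 2.1e-06), slam at -1.91 (adjusted p = 3.81e-05), halo at -4.46 (adjusted p = 1.09e-05) and dunk at -6.66 (adjusted p = 1.01e-08). nullo did not, at -1.01 with an adjusted p of 0.225 in limma. In Zld294 all 6 passed with this covariate, nullo at -1.65 with an adjusted p of 0.000615 in limma, where 23.4% of all genes were called. With a covariate of maternal mRNA clearance instead, 5 of the 6 passed in Zld294 and 32.3% of all genes were called, slam standing at -0.95 (limma adjusted p = 0.00626) and nullo at -1.63 without passing (adjusted p = 0.0643). Levels of patterning genes can themselves depend on Zelda.

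**Figure D5:**
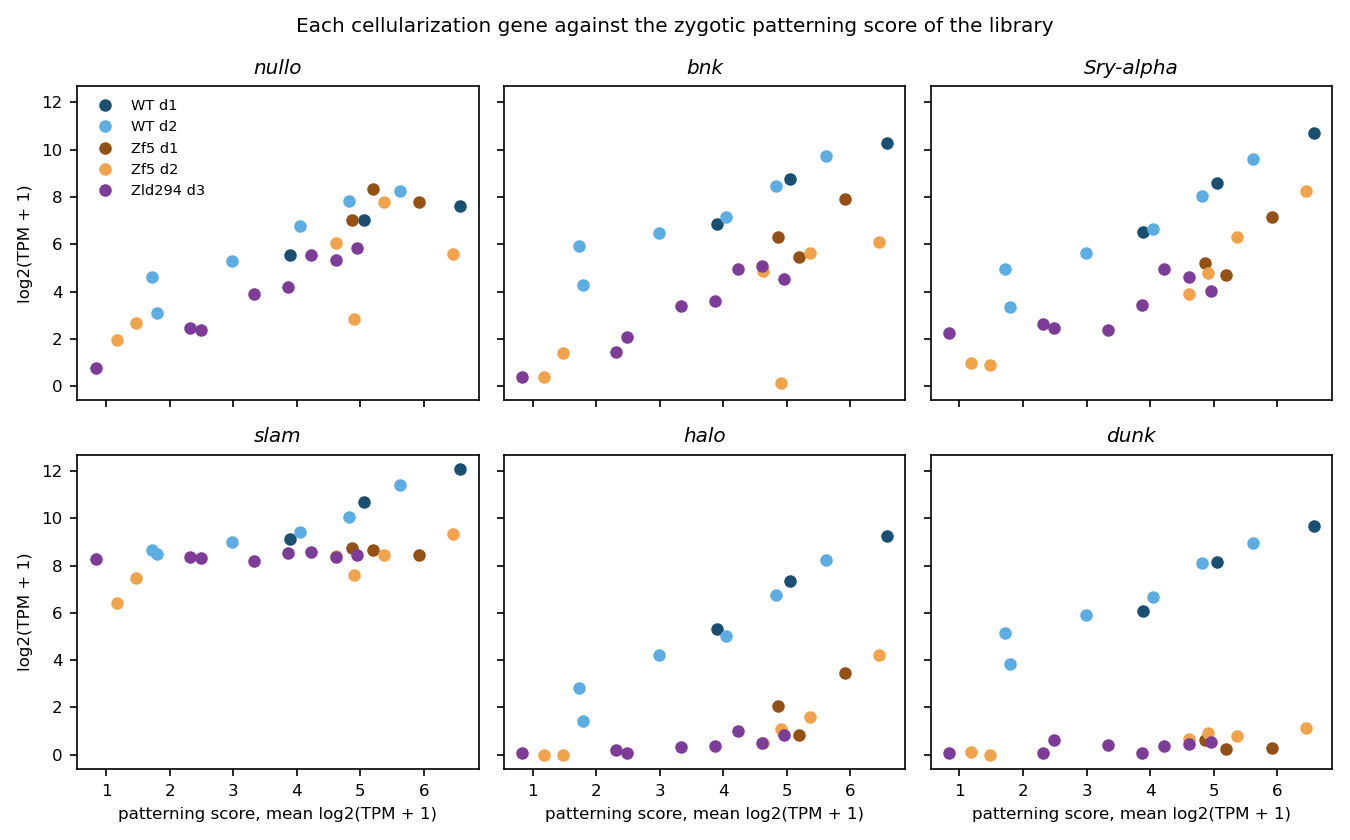
Level of each of the 6 genes (TPM + 1, log axis) against the patterning score, the mean log2(TPM + 1) of 20 zygotic patterning genes; each point is a library, coloured by genotype and day. The wild-type library with the highest score, 6.58, has the highest level of every gene except nullo, and dunk stays at or below 1.21 TPM over mutant scores from 0.834 to 6.45.

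Genes that work beside the 6 members, most of them maternally supplied, gave few calls. Of 29 genes of the furrow machinery, such as those for the formin dia, Rho1 and myosin II, none passed in Zf5 over both days in limma. By comparison, 3.1% of all genes tested rose and 2.1% fell. Among the 29, 1 had an unadjusted p under 0.05 in limma, and the median log2 difference was -0.11. In Zld294 1 of 29 rose, zip, the heavy chain of non-muscle myosin II, at 0.57 (limma adjusted p = 0.0108), and none fell. Of all genes tested there, 8.29% rose and 6.76% fell. Of 11 droplet transport genes 1 was called in Zf5, klar, a regulator of droplet and nuclear transport, which fell by 0.77 (limma adjusted p = 0.0353). The list as a whole leaned lower in Zf5: the median log2 difference was -0.79, and only 2 were positive. In limma 4 of the 11 had an unadjusted p under 0.05. In Zld294 1 of the 11 rose, Dhc64C, the dynein heavy chain, at 1.21 (limma adjusted p = 0.0447), and the list median was 0.45. The lean was not particular to droplet transport. The list of maternal mRNAs cleared in this period had medians of -0.74 in Zf5 (2 of 11 positive) and 0.36 in Zld294 (9 of 11 positive). Among stage markers, 6 of 17 late cycle 14 genes were higher in Zf5, beside 3.1% of all genes, and 0 of 11 maternal mRNAs cleared in this period passed in limma (2 at an unadjusted p under 0.05). In Zld294 1 of 5 and 1 of 11 were higher, beside 8.29% of all genes. Beyond the fits with a patterning or maternal clearance covariate, the part of stage in the member differences was not tested. Pole cell markers, which together gave 189 to 1443 TPM, had 0 of 5 called in Zf5 and 1 of 5 higher in Zld294. The 3 muscle and nerve genes that passed the filter in Zf5 over both days all had positive estimates, with a median of 0.90. None of them was called in limma, and 2 had an unadjusted p under 0.05.

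For each gene the pair of non-members with the most similar pattern was taken as those with the smallest SD of the log2 ratio over all 26 libraries, among genes with a mean of at least 5 TPM. The mutant libraries took part in this choice, so a gene matched to a member tends to share its mutant difference by selection. The p-values given for matched genes are therefore description only and no separate evidence. The closest match of all was found for dunk, with CG8960 (SD 0.37) and bard (SD 0.40). Medians of bard were 465 and 117 TPM in wild type of days 1 and 2 and under 1 TPM in all 3 mutant groups, and bard fell by 6.92 on the log2 scale in Zf5 (limma adjusted p = 2.66e-06). The genes most like halo were tld, a secreted protease of the BMP pathway, at an SD of 0.80 and Neu2 at 0.87, and both fell in Zf5, at -4.20 and -4.57 (limma adjusted p = 0.00154 and 0.000532).

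Genes most like slam were hrg (SD 0.51) and the adhesion gene Nrt (SD 0.58), neither of which passed in Zf5 (limma adjusted p = 0.143 and 0.210). For bnk they were CG15382 (SD 1.08) and CG43184 (SD 1.13), both of which fell in Zf5, at -3.31 and -3.51 (limma adjusted p = 0.0181 and 0.00851). Sry-alpha was nearest to Ilp4, an insulin-like peptide gene, at 0.83 and to CG13427 at 0.87, with Zf5 differences of -2.06 and -1.54 that did not pass (limma adjusted p = 0.131 and 0.404). nullo was nearest to zen, the homeobox gene of dorsal fates, at 0.87 and to CG14427 at 0.99, with Zf5 differences of -0.84 and -0.32 (limma adjusted p = 0.530 and 0.838). Of the matched genes without a Zf5 call, hrg, Ilp4 and CG13427 fell in Zld294, at -1.58, -3.29 and -3.22 (limma adjusted p = 0.0207, 0.00467 and 0.0218). Nrt, zen and CG14427 did not pass there either (limma adjusted p = 0.0552, 0.139 and 0.162). These likenesses were measured over libraries that share stage and genotype, and they describe the levels only.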

How the data were processed

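Total RNA from pools of 3 embryos was made into NEBNext Ultra II libraries, per the labels' protocols. The authors deposited 1 table of TPM per library, each summing to 1000000 over 14220 symbols; kallisto, edgeR, limma and the BDGP6 build are named in the submitters' processing notes, and the annotation, versions and use of strand are not given in the sources used here. Groups came from genotype and day in the labels. limma 3.58.1 in R 4.3.3 was run on log2(TPM + 1) over genes that reached 1 TPM in a number of libraries equal to the size of the smallest group (empirical Bayes with trend, Benjamini-Hochberg over all genes tested, threshold 0.05); it was tested on simulated data. No pair of libraries shared values (highest correlation 0.997). Named were the 6 members, zld, the 2 non-members closest to each in pattern, at most 3 genes past the threshold from each partner list, and genes overlapping a member. The members and lists were chosen with earlier results of these data known. Alternatives were pseudocounts of 0.1 and 5, other filters, median-ratio scaling, stage covariates, a replicate block, all 26 libraries together, single wild types or days, and leaving out each library.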

Additional observations from a re-analysis of the deposited data

Results flagged for a closer look

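Of 21 sets of values of a gene in a group of 6 or 8 libraries, 7 held 1 library that stood apart from the rest by Dixon's criterion. The criterion was applied to TPM without logs. Its nominal rate of about 1 in 20 sets holds for independent sets of normally distributed values. These levels were widely spread and the sets shared libraries, so the number of flags cannot be read against that rate. Zf5 day 2 replicate 2 had nullo at 222.587 TPM, next to 64.9 TPM in the nearest library of its group. Zf5 day 2 replicate 4 stood apart for Sry-alpha, at 300.971 TPM beside 79.0 TPM, and for halo, at 17.574 TPM beside 2.04 TPM. Wild type day 2 replicate 5 stood apart for Sry-alpha at 773.92 TPM (nearest 261 TPM), for slam at 2705.21 TPM (nearest 1058 TPM) and for halo at 304.93 TPM (nearest 107 TPM). Zld294 replicate 7 had zld RNA at 43.2369 TPM, beside 20.2 TPM in replicate 8.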

How the results depend on the processing

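Of the members' calls, those for dunk and halo in Zf5 over both days and for bnk, Sry-alpha, halo and dunk in Zld294 kept their direction and their side of the threshold in all alternatives run. The number of members called in Zf5 over both days, 4, was 2 with no filter, where 3.21% of all genes were called. It was 2 with the replicate block (adjusted p in limma 0.0727 for bnk and 0.0554 for slam), with 2.37% of all genes. It was 5 with the maternal stage covariate, with 12.1% of all genes and Sry-alpha at -3.71 (adjusted p = 0.0024 in limma). It was 2 to 4 when leaving out single libraries, with 280 to 869 genes called in all. On day 1 it was 2 with all 26 libraries in 1 fit (5.61% of all genes called) and 5 with the maternal stage covariate (8.17%). It was also 5 with the patterning covariate, added after seeing the data (24.9%). Without single libraries of day 1 it was 0 to 3, with 0% to 16.7% of all genes called. On day 2 it was 4, 3 and 5 in the first 3 of these fits, with 7.07%, 6.38% and 4.31% of all genes called. Zld294 against Zf5 of day 1 alone called 4 members and 58.5% of all genes. In Zld294 against wild type the replicate block left slam uncalled (-1.56, adjusted p = 0.109 in limma). The cause of these shifts was not tested. Some estimates that had no call in the fits reported changed sign. For the difference between days, leaving out single libraries gave -0.32 to 1.77 for Sry-alpha, -0.27 to 1.21 for slam and -0.52 to 0.16 for zld, and Sry-alpha was -0.43 without Zf5 day 2 replicates 4 and 6. For Zld294 against Zf5, Sry-alpha was 0.46 with the stage covariate, bnk 0.24 with the patterning covariate and 0.11 against Zf5 of day 2, and slam -0.24 against Zf5 of day 1 (adjusted p = 0.0406 in limma) and -0.015 to 0.35 when leaving out single libraries. Between wild types, nullo was 0.32 with the stage covariate, and with the patterning covariate nullo was 1.10, bnk 0.33, Sry-alpha 0.085, slam 0.11 and dunk 0.44. Counts over all genes ranged from 193 to 1179 in Zf5 over both days (424 as reported), 0 to 1788 on day 1 (121), 57 to 494 on day 2 (133), 16 to 145 between days (39), 532 to 2236 in Zld294 (1042), 71 to 4231 between mutants (463) and 0 to 2109 between wild types (587). Same-numbered libraries did not deviate together (33 pairs, correlations -0.76 to 0.73, 16 over 0.1), so the numbers were not taken as pairing. Read depth is unknown, which limits what values under 1 TPM can show.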
